A study of Mus musculus with 6 samples.

Results

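The genes examined here were the Fos and Jun family, the core subunits of the transcription factor AP-1, in cultured mouse fetal liver macrophages with and without the aryl hydrocarbon receptor repressor. Members were taken by gene symbol from the table of 16111 genes, which held all 7 of them: Fos, Fosb, Fosl1 and Fosl2 of the Fos branch and Jun, Junb and Jund of the Jun branch. The list of names was selected on measured values of these same libraries, with the levels of the genotypes already known. Its levels and fold changes are therefore given as a description, with no p-value for any of the 7 genes.

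AP-1 is a dimer held together by leucine zippers, and its basic regions bind a short palindromic DNA element. Fos proteins cannot pair with each other and need a Jun partner, whereas Jun proteins can also pair among themselves. The family includes classical immediate early genes, which growth factors, adhesion and stress induce through MAP kinases within minutes and whose messages decay quickly. In macrophages AP-1 acts beside lineage factors at enhancers and takes part in the response to bacterial products and to growth factors such as GM-CSF.

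Both groups came from fetuses of the strain C57BL/6 RCC at age E13.5 (days of embryonic development), and the labels number the mice 1 to 3 in each group. Wild-type cells and AhRR-/- cells were grown alike for 5 weeks in RPMI medium with serum and 2% GM-CSF, and the non-adherent cells were used. Both groups are thus cells expanded in culture, and how the AhRR-/- allele was made is not given in the sources used here. Libraries of polyadenylated RNA were read as single 75 bp reads, with 3 libraries in each group.

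Libraries held between 3556106 counts (Ahrr-deficient replicate 1) and 41668336 counts (Ahrr-deficient replicate 2), so 3 counts correspond to between 0.844 and 0.072 CPM (counts scaled to the library total). Wild-type replicate 2 stood apart in RNA content, with 5.28% of its counts on the ribosomal RNA gene CT010467.1 against at most 0.0679% in the other libraries. Ahrr itself had 4.74 ± 0.53 CPM in wild-type and 2.01 ± 0.71 CPM in Ahrr-deficient cells (SD, n = 3 each), a log2 fold change of -1.21 (SE 0.26), so reads of the targeted gene remained. This call was lost without wild-type replicate 1 (log2 fold change -1.28, edgeR adjusted p 0.0631) and without wild-type replicate 3 (-1.18, edgeR adjusted p 0.0502). With all libraries thinned to the smallest total it was lost with a smaller fold change (-0.74, SE 0.44, edgeR adjusted p 0.301). All 8 listed macrophage markers were present. Csf1r and Cd14 were called lower in Ahrr-deficient cells (log2 fold changes -0.65 and -1.66, edgeR adjusted p 0.0304 and 0.00329). Adgre1, Itgam, Mertk, Cd68, Fcgr1 and Lyz2 were not past the threshold. Their log2 fold changes were also below 0, from -0.46 (Lyz2) to -0.11 (Itgam). Of 6 alveolar macrophage markers, all tested, Car4 and Pparg were called higher and 0 lower. The others were not past the threshold and lay on both sides of no change. These were Siglecf (log2 fold change 0.39, SE 0.20), Marco (-0.51, SE 0.18), Chil3 (-0.13, SE 0.11) and Fabp4 (-0.53, SE 0.20). Car4 ranged from 45.4 to 128 CPM in wild-type and from 260 to 1086 CPM in Ahrr-deficient libraries (log2 fold change 3.10, SE 0.51, edgeR adjusted p 0.00622). Pparg ranged from 77.8 to 82.5 and from 107 to 148 CPM (0.64, SE 0.11, edgeR adjusted p 0.00736). The summed alveolar macrophage markers were 36071 to 38916 CPM in wild-type and 35002 to 37474 CPM in Ahrr-deficient libraries, mostly from Chil3. The summed macrophage markers ranged from 21829 to 27080 CPM in wild-type and from 15069 to 22592 CPM in Ahrr-deficient libraries. Most of this sum came from Lyz2, which was not past the threshold (log2 fold change -0.46, SE 0.17). Dendritic cell markers, of which 3 of 6 were in the table, summed to between 57.6 and 62.1 CPM in wild-type and between 72.0 and 93.2 CPM in Ahrr-deficient libraries, mostly from Clec9a. Clec9a was called higher (log2 fold change 0.49, SE 0.12, edgeR adjusted p 0.0256). Zbtb46 lay in the other direction and was not past the threshold (-0.32, SE 0.18), and Xcr1 was not tested. The part of these marker differences in the results below was not tested. Neutrophil, erythroid and hepatocyte markers summed to at most 2.22, 0.841 and 0.864 CPM in any library, and no listed marker of mast cells, fibroblasts or lymphocytes was in the table.

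The promoters are shown first, since Fos, Fosb and Junb had the largest differences and Jun did not share them. Each line gives the 250 bases before the RefSeq start on the gene's own strand, from the GRCm38.p6 table. Capitals mark TGACG, the core of a cAMP response element, the 8-base AP-1 element TGANNTCA, and GCGTG, the core bound by the aryl hydrocarbon receptor, each searched on both strands.
Fos: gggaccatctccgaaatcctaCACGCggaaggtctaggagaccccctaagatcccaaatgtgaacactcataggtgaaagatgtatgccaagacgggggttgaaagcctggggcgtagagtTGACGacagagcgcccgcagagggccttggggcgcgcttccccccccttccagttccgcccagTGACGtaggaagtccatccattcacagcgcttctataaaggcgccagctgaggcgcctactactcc
Fosb: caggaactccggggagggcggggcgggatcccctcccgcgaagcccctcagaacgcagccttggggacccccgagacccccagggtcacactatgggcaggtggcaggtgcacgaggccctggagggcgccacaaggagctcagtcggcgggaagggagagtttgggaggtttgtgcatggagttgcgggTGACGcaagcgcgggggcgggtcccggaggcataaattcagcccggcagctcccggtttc
Junb: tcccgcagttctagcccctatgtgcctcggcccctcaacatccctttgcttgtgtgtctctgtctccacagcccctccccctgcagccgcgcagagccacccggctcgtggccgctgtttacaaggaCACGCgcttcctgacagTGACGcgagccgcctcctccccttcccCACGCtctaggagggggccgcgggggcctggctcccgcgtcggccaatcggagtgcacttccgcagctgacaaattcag
Jun: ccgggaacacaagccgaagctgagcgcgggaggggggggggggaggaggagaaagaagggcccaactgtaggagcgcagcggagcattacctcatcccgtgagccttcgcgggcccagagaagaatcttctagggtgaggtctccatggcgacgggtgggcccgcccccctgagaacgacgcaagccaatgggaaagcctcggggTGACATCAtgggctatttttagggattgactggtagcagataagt
The windows lie at chr12:85473640-85473889 on the plus strand for Fos, and on the minus strand at chr7:19310046-19310295 for Fosb, chr8:84978749-84978998 for Junb and chr4:95052223-95052472 for Jun. TGACG occurred in the Fos window at 129 and 66 bases before the start, and once in the windows of Fosb (60 bases before) and Junb (106 bases before). It was in none of the windows of Jun, Jund and Fosl2, although Fosl2 was also lower in Ahrr-deficient cells. In all, 17.8% of 32851 RefSeq promoter windows of the same length held it. TGANNTCA occurred in the Jun window 45 bases before the start and in the Jund window 61 bases before the start, and was found in 11.9% of all windows. The 7-base form TGANTCA was in no window of the 6 members and in 6.75% of all windows. The CArG box (CC, 6 bases of A or T, then GG) was likewise in no window of the 6 members, and in 1.47% of all windows. GCGTG occurred in the Fos window, read on the opposite strand 229 bases before the start, and in the Junb window, 123 and 79 bases before the start on the opposite strand, against 28.2% of all windows. A TATAA sequence stood 33 bases before the start of Fos alone among the 6 members with a window, and 16% of all windows held one on the gene strand. These matches are descriptions of letters. RefSeq starts of Jund and Fosl2 lay 1210 and 671 bases from the GENCODE gene starts, so their windows may belong to other transcripts and are not printed. Fosl1 was not in the promoter table.

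Fos, the founding member of its branch, showed the largest difference of the family. On chromosome 12 (85473890 to 85477273, plus strand, GRCm38), it had 326, 326 and 415 CPM in the wild-type libraries, in the order of replicates 1 to 3 that is kept below, against 84.6, 59.4 and 60.0 CPM in the Ahrr-deficient ones. Every wild-type library lay far above every Ahrr-deficient library, and Ahrr-deficient replicate 1 was the highest of its group. The means were 355 ± 51 and 68.0 ± 14.4 CPM (SD, n = 3 each), a ratio of 5.23 and a log2 fold change of -2.48 (SE 0.16). In these bulk cultures, fewer cells that express a gene and less of its RNA per cell cannot be told apart.

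Fosb encodes a second inducible Fos protein and lies on chromosome 7 (19302696 to 19310051, minus strand). It had 52.7, 62.7 and 41.5 CPM across the wild-type libraries, against 25.6, 24.2 and 18.9 CPM across the Ahrr-deficient ones. The groups did not overlap, although the wild-type libraries spread over 40.6% of their mean. Fosb had a log2 fold change of -1.29 (SE 0.19).

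Fosl2 encodes Fra-2, a Fos-related protein that lacks the strong transactivation domain of Fos, and lies on chromosome 5 (32135801 to 32157842, plus strand). It took the most reads of the family, with 851, 817 and 636 CPM across the wild-type libraries, against 562, 529 and 549 CPM across the Ahrr-deficient ones. Wild-type replicate 3 stood close to the Ahrr-deficient libraries, which were within 5.92% of their mean of each other. The log2 fold change was -0.57 (SE 0.15). This was the most fragile of the differences: the fit across all genes no longer placed Fosl2 past its threshold without wild-type replicate 1 (-0.52), wild-type replicate 2 (-0.47), Ahrr-deficient replicate 2 (-0.55) or Ahrr-deficient replicate 3 (-0.58), nor with the replicate block and GC offsets together (-0.49).

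Fosl1 encodes Fra-1, the other Fos-related protein, and lies on chromosome 19 (5447547 to 5455946, plus strand). It was close to the limit of detection, with 12, 1 and 2 counts in wild-type and 1, 25 and 7 counts in Ahrr-deficient libraries. Its levels of 0.159 to 0.547 CPM and 0.281 to 0.708 CPM overlapped, and it was removed by the filter on low counts. An exon of Ccdc85b, which had 9.24 CPM in wild-type cells, overlaps Fosl1 on the opposite strand, and whether counting used strand is not given in the sources used here.

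Among the Jun genes only Junb differed between groups beyond the spread of the libraries. Junb encodes a rapidly induced Jun protein that is a weaker activator than Jun. On chromosome 8 (84974484 to 84978718, minus strand), it had 517, 490 and 615 CPM across the wild-type libraries, against 195, 220 and 229 CPM across the Ahrr-deficient ones. The lowest wild-type value was above all Ahrr-deficient values, with means of 541 ± 66 and 215 ± 18 CPM (SD, n = 3 each) and a log2 fold change of -1.40 (SE 0.10). Exons of Prdx2 overlap Junb on the opposite strand, and Prdx2 had 93.2 ± 10.0 and 91.9 ± 8.6 CPM in the same groups (log2 fold change -0.09, SE 0.09, edgeR adjusted p 0.506).

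Jun, the gene of c-Jun and a target of its own protein, did not share this pattern. It lies on chromosome 4 (95049034 to 95052222, minus strand) and had 42.8, 38.7 and 29.8 CPM across the wild-type libraries, against 42.5, 50.8 and 49.0 CPM across the Ahrr-deficient ones. The groups overlapped, and the log2 fold change of 0.28 (SE 0.15) was in the other direction. Jun was not past the threshold in any of the 16 alternative fits, with log2 fold changes of 0.11 to 0.41. Junos, an antisense RNA over Jun, had 1.92 and 2.42 CPM in the groups.

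Jund encodes the Jun protein that is present in most resting cells and is little induced by stimuli. It lies on chromosome 8 (70698949 to 70700616, plus strand) and had 46.0, 35.2 and 38.2 CPM across the wild-type libraries, against 28.7, 44.1 and 42.4 CPM across the Ahrr-deficient ones. The ranges overlapped, and the log2 fold change was -0.10 (SE 0.15). Its sign turned with offsets for GC content (0.18), with these offsets and the replicate block (0.19) and without Ahrr-deficient replicate 1 (0.012), so no direction is given for Jund. It has the highest GC content of the family, 67.1% of its longest transcript.

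**Figure D1:**
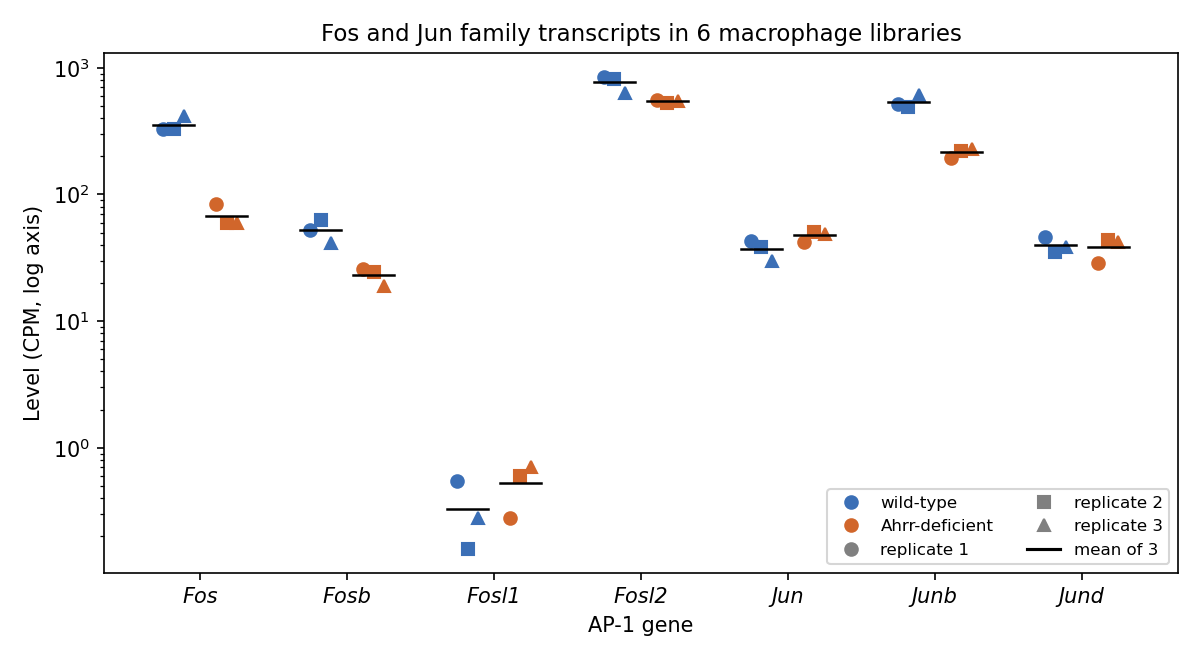
Level of each member in CPM (log axis) in the 6 libraries, with blue for wild-type, orange for Ahrr-deficient, marker shapes for replicate numbers and black lines for the mean of 3. For Fos, Fosb, Fosl2 and Junb the orange points lie below all blue points, as with Fos at 59.4 to 84.6 against 326 to 415 CPM, while those of Fosl1, Jun and Jund overlap.

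Of the 6 members that passed the filter on low counts, 4 (Fos, Fosb, Fosl2 and Junb) were past the threshold of an edgeR adjusted p under 0.05 and lower in Ahrr-deficient cells. The same call was made in this direction for 9.95% of all 11408 tested genes, in the higher direction for 9.62%, and in either direction for 19.6%. The same 4 members had groups that did not overlap, as did 36.6% of tested genes. Nothing is read from these counts, because the members were chosen with the contrast known. The median log2 fold change of the 6 was -0.93, against 0.0076 over all tested genes. Over 16 other fits to the same libraries, which are no independent support, the log2 fold changes of Fos, Fosb and Junb ranged from -2.67 to -2.38, from -1.46 to -1.09 and from -1.46 to -1.16.

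**Figure D2:**
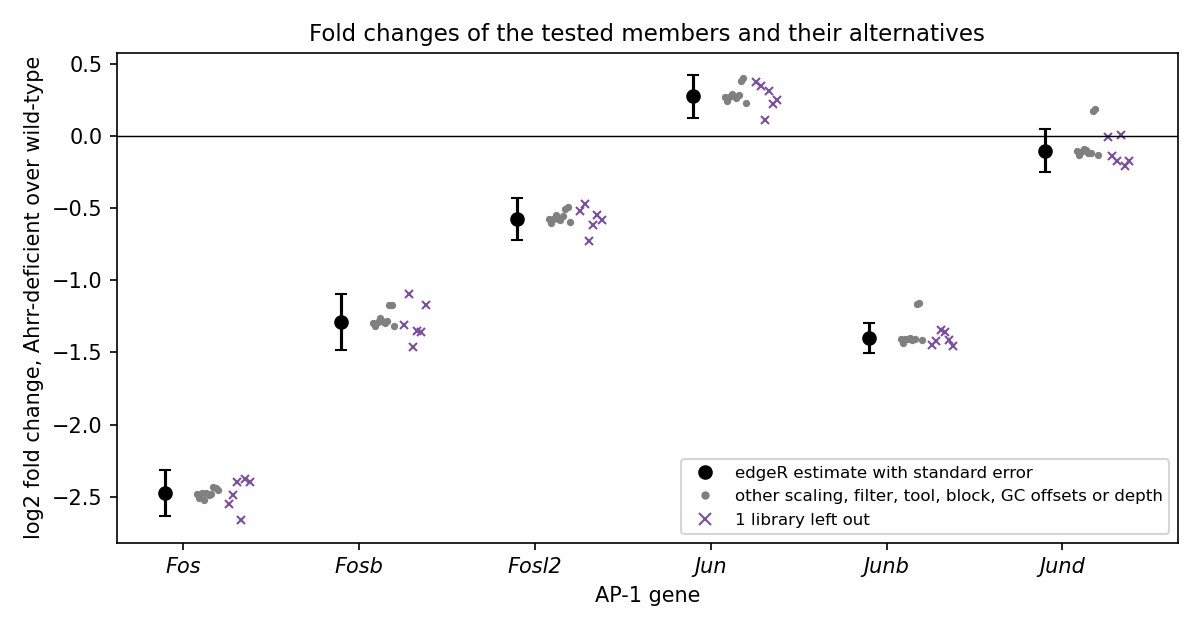
Log2 fold change of the 6 tested members, Ahrr-deficient over wild-type, with its standard error (black), under other scalings, filters, tools, block, GC offsets or depth (grey) and with 1 library left out (purple). Fos stays between -2.67 and -2.38, Junb between -1.46 and -1.16, and Jund lies on both sides of 0.

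Levels were then compared between members per length, as CPM per kb of merged exon, since the exons of the 7 genes span from 1.67 kb (Jund) to 9.68 kb (Fosl2). In wild-type cells Junb stood highest at 235 ± 28 CPM per kb, followed by Fos at 151 ± 22, Fosl2 at 79.3 ± 12.0, Jund at 23.9 ± 3.3, Jun at 11.6 ± 2.1, Fosb at 8.38 ± 1.70 and Fosl1 at 0.162 ± 0.098 (SD, n = 3). In this order the ranges of all neighbours were apart except those of Jun and Fosb, which were 9.36 to 13.4 and 6.64 to 10.0 CPM per kb. These swapped places with the longest transcript as the length, where Jun made up 1.85% and Fosb 2.20% of the sum over the family in wild-type cells. In Ahrr-deficient cells Junb was again highest at 93.4 ± 7.8 CPM per kb, but Fosl2 stood next at 56.4 ± 1.7. Fos had 28.9 ± 6.1 CPM per kb there and overlapped Jund, which had 23.0 ± 5.1. Jun followed at 14.9 ± 1.4, Fosb at 3.67 ± 0.56 and Fosl1 at 0.261 ± 0.109 CPM per kb. The Fos transcript thus had the second highest level per length of the family in each wild-type library and was below Fosl2 in each Ahrr-deficient library.

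Summed over the 7 members, the level was 501, 479 and 548 CPM per kb in wild-type and 213, 222 and 226 CPM per kb in Ahrr-deficient libraries. Fos made up 29.6 ± 2.3% of this sum in wild-type and 13.2 ± 3.2% in Ahrr-deficient cells (SD, n = 3 each). The share of Junb was 46.0 ± 2.4% and 42.3 ± 2.3%. Fosl2 made up 15.7 ± 3.2% and 25.6 ± 1.4%, Jund 4.70 ± 0.71% and 10.4 ± 2.1%, and Jun 2.31 ± 0.53% and 6.74 ± 0.47%. Shares sum to a fixed total, so a larger share of Jun or Jund does not show a higher level of that gene. With the longest transcript as the length, Fos had 26.5% and 11.6%, Junb 47.0% and 42.5%, and Fosl2 18.7% and 30.0%. Jund then had 3.77% and 8.23%, and Jun 1.85% and 5.33%, so the size of a share depends on the length used.

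**Figure D3:**
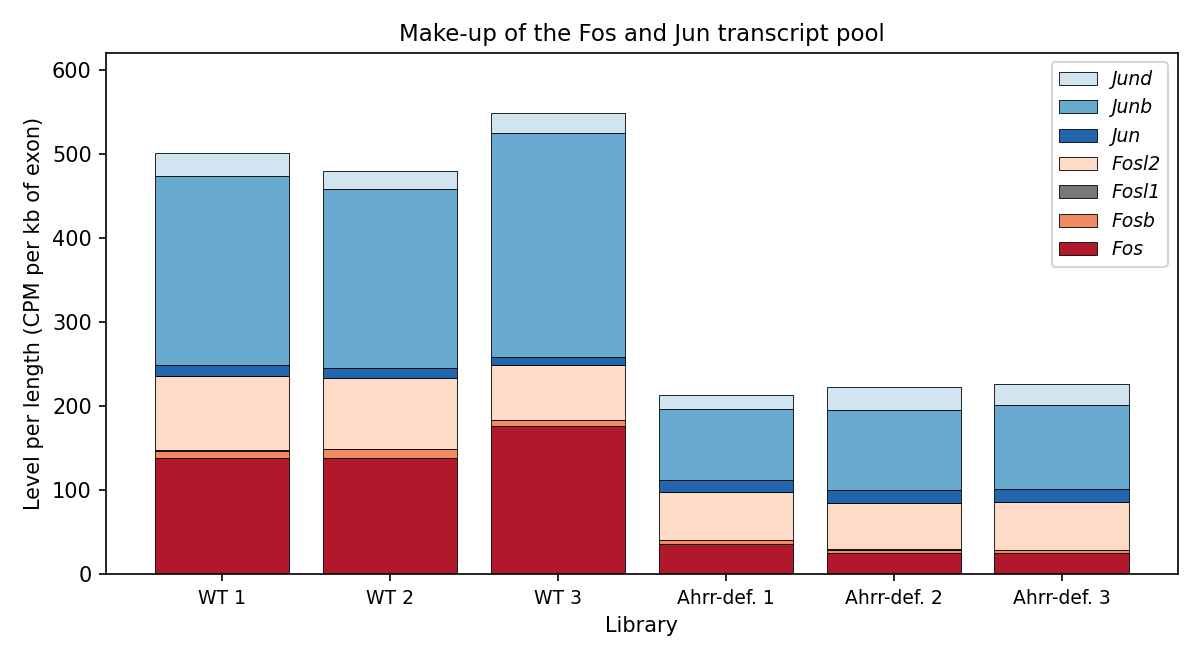
Level per length of the 7 members (CPM per kb of merged exon) stacked for each of the 6 libraries, Fos branch in red shades (Fosl1, barely visible, in grey) and Jun branch in blue. The bars reach 479 to 548 in wild-type and 213 to 226 in Ahrr-deficient libraries, and the Fos segment at the bottom shrinks from 29.6% to 13.2% of the bar on average.

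The libraries of a group did not deviate in the same way for all members. In the Ahrr-deficient group replicate 1 had the highest level of Fos, Fosb and Fosl2 and the lowest level of Jun, Junb and Jund. Fos-branch members made up 46.0% of the summed level per length in that library, against 37.9% and 37.8% in replicates 2 and 3 and 45.4% to 48.6% in wild-type libraries. Ahrr-deficient replicate 1 was also the shallowest library, and the longest transcripts of Jun, Junb and Jund have GC contents of 55.5%, 62.6% and 67.1% against 51.9% to 56.0% for the tested Fos genes. The part of depth and GC content in this pattern was not tested. In wild-type cells replicate 3 had the highest Fos and Junb and the lowest Fosb, Fosl2 and Jun.

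Genes with the most similar profile were sought among 10033 tested genes with a mean of at least 50 counts, by the root mean square difference of centred log2 CPM over the 6 libraries. Closest to Fos were Fam71f2 (0.26), Angptl4 (0.26), the gene of a secreted inhibitor of lipoprotein lipase, and Ppp1r9a (0.27). Closest to Junb was Pim3 (0.077), which encodes a serine/threonine kinase, with 223, 187 and 237 CPM across the wild-type libraries, against 74.8, 87.1 and 99.3 CPM across the Ahrr-deficient ones, then Fam213b and Dynlt1b (0.11 each). Near to Fosb were Sdc4 (0.097), the gene of syndecan-4, and Syt8 (0.14), and near to Fosl2 were Pmp22 (0.031), Fbxl12 (0.065) and Tmem106c (0.074). The nearest profiles to Jun were those of AC160980.1 (0.064), Ahcy (0.068) and Fam222b (0.075), and to Jund those of Aars2 (0.039), Tuba1c (0.047) and Gm7160 (0.054). Among members, Fos and Junb differed by 0.58, Fos and Fosb by 0.68, and Fosb and Junb by 0.34. These distances are descriptions without a test.

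Other leucine zipper factors pair with Fos and Jun proteins or compete for their sites. All 16 listed genes were tested, of which 4 fell and 3 rose (43.8% called, median log2 fold change -0.035). Over all tested genes 19.6% were called in either direction, with a median log2 fold change of 0.0076. Nothing is read from the shares called in this list and those below. All lists were chosen with earlier results of these data known. Atf3, a stress-induced repressor that dimerizes with Jun proteins, had 187, 181 and 188 CPM across the wild-type libraries, against 113, 105 and 72.2 CPM across the Ahrr-deficient ones, without overlap (log2 fold change -1.02, SE 0.15, edgeR adjusted p 0.00409). Jdp2, a repressor that pairs with Jun, fell by 0.76 on the log2 scale (SE 0.12, edgeR adjusted p 0.00576). Maf fell from 3.64 to 1.73 CPM (edgeR adjusted p 0.0124), a call lost without wild-type replicate 1 and without Ahrr-deficient replicate 2. The small Maf protein gene Mafg rose by 0.72 (SE 0.13, edgeR adjusted p 0.00842). Atf2, a substrate of stress kinases, rose by 0.35 (SE 0.10, edgeR adjusted p 0.0422) and Atf4 by 1.08 (SE 0.32, edgeR adjusted p 0.0424), but these calls were lost in 4 and 5 of the 6 fits that left out 1 library. Batf and Bach1 were among the 9 genes not past the threshold.

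Signals reach Fos and Jun through MAP kinase cascades. Of 24 listed genes 20 were tested, of which 3 rose (15% called against 19.6% of all tested genes, median log2 fold change 0.011). In this fit 0 genes of the list fell by the edgeR test, also at an unadjusted p under 0.05, and 0 with DESeq2. Without Ahrr-deficient replicate 1, however, 2 genes of the list, Braf and Map3k1, were called lower by edgeR, and with GC offsets 1 gene was lower at an unadjusted p under 0.05. Rps6ka3, which encodes the ERK-activated kinase RSK2, rose from 222 ± 20 to 372 ± 27 CPM (SD, n = 3 each, log2 fold change 0.68, SE 0.09, edgeR adjusted p 0.00336). The kinase genes Map2k4 (log2 fold change 0.28, SE 0.08) and Map2k3 (0.49, SE 0.13) also rose, with edgeR adjusted p-values of 0.0347 and 0.0353, and both calls were lost in 5 of the 6 fits that left out 1 library. The JNK genes Mapk8 and Mapk9 had log2 fold changes of 0.045 and 0.20, and the ERK gene Mapk3 of 0.0039, none past the threshold.

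Transcription factors that act on the Fos and Jun promoters were listed as a group of 11, all of them tested. Of these 3 fell and 1 rose (36.4% called against 19.6% of all tested genes, median log2 fold change 0.073). Mkl1, the gene of an actin-regulated partner of serum response factor, had 127, 114 and 123 CPM across the wild-type libraries, against 87.5, 73.9 and 90.4 CPM across the Ahrr-deficient ones (log2 fold change -0.62, SE 0.10, edgeR adjusted p 0.00519). Mef2d fell by 0.55 (SE 0.07, edgeR adjusted p 0.00252) and Mef2c, at 4.50 and 2.26 CPM, by 1.21 (SE 0.22, edgeR adjusted p 0.00823). These encode MEF2 proteins, which bind the Jun promoter. The Mef2c call was lost without wild-type replicate 1 and without Ahrr-deficient replicate 2. Srf itself, the serum response factor gene, had 44.7 ± 4.5 and 52.6 ± 8.0 CPM (SD, n = 3 each, edgeR adjusted p 0.294), but was called higher with GC offsets, with these and the replicate block, and without Ahrr-deficient replicate 1. Elk1, which encodes its ERK-responsive cofactor, rose by 0.34 (SE 0.10, edgeR adjusted p 0.0458), a call lost in 5 of the 6 fits with 1 library left out. The ubiquitin ligase genes Fbxw7, Itch and Rfwd2 stood in a list of 10 genes that govern turnover and activity of Fos and Jun proteins. In this list 1 gene was called (10% of those tested, against 19.6% of all tested genes). It was Gsk3b, whose kinase phosphorylates Jun, at 105 and 135 CPM (log2 fold change 0.29, SE 0.07, edgeR adjusted p 0.0203). Leaving out 1 library removed this call in 4 of 6 fits. Without Ahrr-deficient replicate 1, 2 genes of the list were called lower by edgeR. With GC offsets 1 gene was lower at an unadjusted p under 0.05.

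Textbook targets of AP-1 were found on both sides. Of 24 listed genes 19 were tested, of which 5 fell and 5 rose (median log2 fold change 0.24). The share called was 52.6%, against 19.6% of all tested genes, in a list chosen with earlier results known. Among the lower genes were the phosphatase gene Dusp1 (log2 fold change -1.50, SE 0.08, edgeR adjusted p 1.44e-04), the growth factor gene Vegfa (-1.46, SE 0.23, edgeR adjusted p 0.00496), Il1b (-1.50, SE 0.26, edgeR adjusted p 0.00658) and the metallothionein gene Mt1 (-0.54, SE 0.10, edgeR adjusted p 0.00964). Dusp1 had 325, 314 and 359 CPM across the wild-type libraries, against 128, 125 and 118 CPM across the Ahrr-deficient ones. Higher were Plau, the urokinase gene, with 5.97, 6.03 and 3.50 CPM across the wild-type libraries, against 9.56, 31.3 and 25.0 CPM across the Ahrr-deficient ones (log2 fold change 2.10, SE 0.35, edgeR adjusted p 0.00634), and Spp1, the osteopontin gene (1.94, SE 0.42, edgeR adjusted p 0.0151). Hbegf, Ccl2 and Tnf also rose, from means of 1.15, 1.70 and 1.33 CPM to 4.14, 6.62 and 3.59 CPM, with edgeR adjusted p-values of 0.0176, 0.0197 and 0.0181. These calls of Hbegf and Tnf were lost in 4, and that of Ccl2 in 5, of the 6 fits with 1 library left out. Spp1 was not called without wild-type replicate 1 or wild-type replicate 3, and Mt1 not without wild-type replicate 1, where 5 targets were called in all. Plaur, Cd44 and Hmox1 were not past the threshold.

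Other immediate early genes, which the same stimuli induce, did not move as a block. Of 20 listed genes 18 were tested, of which 7 fell and 4 rose (median log2 fold change -0.60). The share called was 61.1%, against 19.6% of all tested genes, in a list chosen with earlier results known. Btg2, Zfp36 and Nr4a1 were lower with no overlap between groups. Btg2, an antiproliferative gene, had 431, 420 and 526 CPM across the wild-type libraries, against 175, 110 and 118 CPM across the Ahrr-deficient ones (log2 fold change -1.86, SE 0.18, edgeR adjusted p 0.00101). Zfp36 encodes tristetraprolin, which binds AU-rich messages such as that of Fos and promotes their decay, and fell by 1.67 (SE 0.20, edgeR adjusted p 0.00228). Nr4a1 fell by 1.51 (SE 0.20, edgeR adjusted p 0.00279). Egr1, which shares serum response elements with Fos, had 118, 70.0 and 36.0 CPM across the wild-type libraries, against 41.3, 68.7 and 57.0 CPM across the Ahrr-deficient ones, with overlapping groups (log2 fold change -0.49, SE 0.35, edgeR adjusted p 0.349). Ier2 was not past the threshold either (-0.34, SE 0.12, edgeR adjusted p 0.0771), and both were called with no filter on low counts. That fit gave much smaller standard errors to some variable genes, such as Spp1 (0.12 against 0.42) and Atf4 (0.11 against 0.32). Nothing is therefore read from these calls of Egr1 and Ier2. Higher were Myc, with 26.8, 17.1 and 19.0 CPM across the wild-type libraries, against 72.6, 111 and 165 CPM across the Ahrr-deficient ones (log2 fold change 2.37, SE 0.27, edgeR adjusted p 0.00184), Egr3 (1.52, SE 0.22, edgeR adjusted p 0.00384), Klf4 (0.68, SE 0.10, edgeR adjusted p 0.00425) and Klf6 (0.66, SE 0.12, edgeR adjusted p 0.00758). Ier3 and Nr4a2 completed the lower genes, at -0.90 and -2.23, and lost their calls without Ahrr-deficient replicate 2, Nr4a2 also without wild-type replicate 1. Atf3 and Dusp1 belong to this list and to others above.

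**Figure D4:**
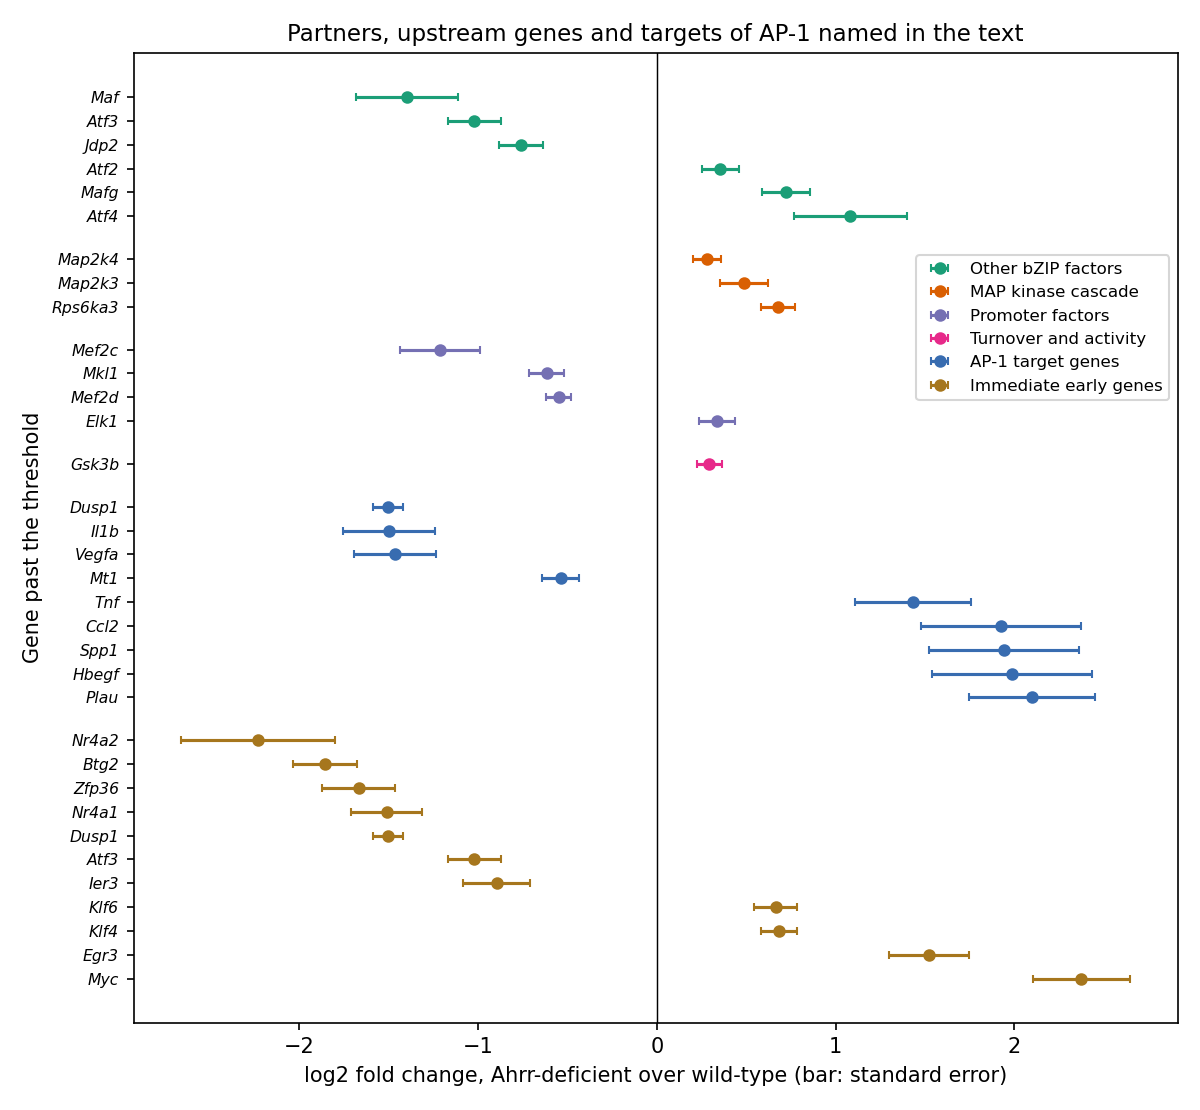
Log2 fold change, Ahrr-deficient over wild-type, with standard error, of genes past the threshold in the 6 lists around AP-1, coloured by list and ordered by value, with Atf3 and Dusp1 shown in both of their lists. The factor, target and immediate early lists hold genes on both sides of 0, from Nr4a2 at -2.23 to Myc at 2.37, and the genes of the kinase and turnover lists lie above 0.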

How the data were processed

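The 7 members and all gene lists were chosen with earlier results of these data known. The authors deposited raw counts without gene identifiers (53465 features) and, per the file headers, a normalized signal with identifiers (16111 genes). Each signal was a whole multiple of 1 read (100% of values, tolerance 1e-06), and the recovered reads equalled the raw counts of the 16111 features with at least 10 counts. Per the submitters' processing notes, fastp 0.20.0, STAR 2.7.10b, DESeq2 1.40.2 and build mm10 were used. The counting tool, annotation and strand setting are not given in the sources used here. The model fitted to the recovered counts was that of edgeR 4.0.16 (R 4.3.3) and its quasi-likelihood F test (TMM scaling, filterByExpr, genotype only), two-sided, with Benjamini-Hochberg adjustment over 11408 genes and a threshold of 0.05. The method was also run on simulated counts in which all genes had the same variability, a simpler setting than these libraries. Standard errors come from the fold change and the F statistic. CPM is the count scaled to the library total, and floors cover counting error only. Coordinates, lengths and GC content come from GENCODE M21 (GRCm38, the assembly of mm10), in which 16094 identifiers were found. Named genes were the members, in each list up to 6 called genes with the smallest adjusted p and those needed for its direction, and 3 profile neighbours per member. Genes named as not past the threshold or called only in an alternative, and called genes beyond those 6 (Spp1, Tnf, Ccl2, Hbegf, Klf4, Klf6, Ier3 and Nr4a2), were chosen after their values were seen. Listed symbols Mrtfa, Mrtfb and Cop1 were found as Mkl1, Mkl2 and Rfwd2. Alternatives were RLE and upper-quartile scaling, DESeq2 1.42.0, limma-voom (limma 3.58.1), no filter, a mean of at least 50 counts, the replicate block, GC offsets (lowess, span 0.3), both together, thinning to the smallest total, each library left out, a prior count of 0.5 for profiles and the longest transcript as length. A few list genes and 1 profile neighbour are counted but not reported here by name.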

Additional observations from a re-analysis of the deposited data

How the results depend on the processing

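All alternatives were planned. The number of genes called over the whole table was 2232 in the reported result, 1390 with the replicate block, 1275 with the replicate block and GC offsets and 1251 after thinning. With 1 library left out, counts of called genes ranged from 694 (without wild-type replicate 1) to 3857 (without Ahrr-deficient replicate 1) over all genes, from 3 to 4 for the members, from 4 to 10 for the other leucine zipper factors, from 1 to 5 for the MAP kinase list (2 of the 5 lower), from 2 to 6 for the promoter factors, from 0 to 3 for the turnover list, from 5 to 12 for the targets and from 9 to 14 for the immediate early genes. Of the 3 turnover genes called without Ahrr-deficient replicate 1, 2 were lower. The filter at a mean of 50 counts left 4 leucine zipper factors. The MAP kinase list kept 1 call, Rps6ka3, with the replicate block and after thinning. The turnover list had 0 calls by edgeR with the replicate block, with the block and GC offsets and after thinning, with 1 gene at an unadjusted p under 0.05 in each, and 1 call by DESeq2 and by limma-voom. The log2 fold change of Jund turned sign in 3 fits, at 0.178, 0.187 and 0.0118, and ranged from -0.205 to 0.0118 with 1 library left out. Same-numbered libraries come from different mice and their deviations had correlations of -0.169, 0.0714 and 0.129, so the numbers were not taken as pairs, and 4 members were past the threshold with the replicate block, as without it. Few reads limit Fosl1, with 1 to 25 counts a library. The cause of these changes was not tested.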
